A study of Mus musculus with 50 samples.

Results

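The mitosis genes described here are 32 genes of mouse embryonic stem cells that encode mitotic cyclins, mitotic kinases, proteins of the centromere and kinetochore, and proteins of the spindle and of cytokinesis. They were taken by name, and all 32 have a row among the 12819 rows of the authors' deposited table. No measured value entered the choice, but the list was drawn up with earlier results of these data known. By role they fall into 6 groups. These are 6 cyclin, Cdk1 and Cdc25 genes, 5 mitotic kinase genes, 6 genes of the spindle checkpoint and of anaphase, 7 centromere, kinetochore and chromosomal passenger genes, 3 genes of spindle assembly and chromosome structure, and 5 cytokinesis genes.

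The study depleted Cdk12, a kinase that pairs with cyclin K (Ccnk) and phosphorylates RNA polymerase II, and asked how polyA-selected RNA changed. The cells were V6.5 embryonic stem cells (mouse strain C57Bl/6-129) of genotype Cdk12 -/-:Cdk12 Tg+, in which a doxycycline (Dox) inducible, tagged Cdk12 transgene stands in for the missing gene. Clones 28 and 36 were sampled in duplicate at each of 3 times, that is 0 h with Dox held at 1 µg/mL, and 24 h and 48 h after Dox was taken away, which gave 4 libraries per time. The parental Cdk12 Fl/Fl; Cdk12 Tg- cells, clone 21, had 17 days of Dox and were sampled at the same 3 times in 2 libraries each. Every knockout library, those at 0 h included, thus comes from cells that lack endogenous Cdk12, and each knockout line is 1 clone. The table gives 1 comparison of each later time with 0 h, without saying which of the libraries entered it, and no value per library. Changes are therefore printed with neither an error nor a number of replicates, and how deeply the libraries were sequenced is unknown.

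Cells enter mitosis when Cdk1, bound to cyclin A or cyclin B and freed of inhibitory phosphate by Cdc25 phosphatases, becomes active. Polo-like and Aurora kinases then drive spindle assembly, kinetochores tie chromosomes to microtubules, and the spindle checkpoint holds back the anaphase-promoting complex (APC/C) until every chromosome is attached. Transcripts of most such genes peak together in G2 and M phase, through the MuvB complex with B-Myb and FoxM1. Embryonic stem cells divide fast and carry much of this RNA. In RNA from bulk cultures, a changed share of cells in mitosis and a changed amount of RNA per cell cannot be told apart.

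Promoters are shown first, because many genes of mitosis are known to share promoter elements. The elements searched were TTTGAA and TTCGAA, the core letters of the cell cycle genes homology region that MuvB binds, and CCAAT, the box bound by NF-Y. Both strands were searched over 250 bases before and 50 bases after the gene start, in RefSeq promoters of GRCm38.p6. A TTTGAA match can share a base with a CCAAT match, and matches were counted separately. Of the 32 members 26 had a promoter entry. TTTGAA or TTCGAA was found in 19 of these 26 promoters (73.1%), against 15.7% of the 10067 genes in the deposited table with a promoter entry and 21.7% of all 27025 genes with one. Each of the 19 had such a match within 50 bases of the gene start. CCAAT was found in 20 of the 26 (76.9%), against 43.3% of genes in the deposited table and 41.1% of all genes with an entry. Both kinds of element were present in 17 of the 26 (65.4%), against 6.75% of genes in the deposited table. Of the elements searched, Ccnb1, Nek2 and Cenpe held CCAAT alone, and Ndc80 and Anln held TTTGAA or TTCGAA alone. Birc5, Mad2l1, Nuf2 and Pttg1 held neither within these windows. Other spellings of the homology region were not searched, so its absence from a promoter is not shown. A match is a description of letters and no proof of binding. The 6 windows below run from 120 bases before to 30 bases after the start. They belong to the members with the highest and lowest change at 48 h, Cenpe and Nek2, and to the 4 members of the cyclin, Cdk1 and Cdc25 group that could be shown. Capitals mark matches on either strand, so that CCAAT may read as ATTGG. The windows are chr3:135212443-135212592 (plus strand) for Cenpe, chr1:191821353-191821502 (plus) for Nek2, chr13:100786457-100786606 (minus) for Ccnb1, chr9:70421525-70421674 (minus) for Ccnb2, chr2:131186828-131186977 (plus) for Cdc25b and chr10:69352883-69353032 (minus) for Cdk1.
Cenpe: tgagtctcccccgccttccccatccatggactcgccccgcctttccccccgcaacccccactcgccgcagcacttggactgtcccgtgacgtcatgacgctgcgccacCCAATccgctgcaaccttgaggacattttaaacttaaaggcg
Nek2: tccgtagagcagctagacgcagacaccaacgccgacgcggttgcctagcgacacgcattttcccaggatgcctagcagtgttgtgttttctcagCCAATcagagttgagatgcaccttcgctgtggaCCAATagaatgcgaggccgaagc
Ccnb1: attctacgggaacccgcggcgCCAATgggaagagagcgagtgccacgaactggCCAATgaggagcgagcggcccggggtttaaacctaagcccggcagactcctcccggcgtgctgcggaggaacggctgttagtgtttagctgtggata
Ccnb2: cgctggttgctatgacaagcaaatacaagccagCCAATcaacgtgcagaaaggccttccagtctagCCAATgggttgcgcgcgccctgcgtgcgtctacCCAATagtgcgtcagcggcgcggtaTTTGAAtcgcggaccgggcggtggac
Cdc25b: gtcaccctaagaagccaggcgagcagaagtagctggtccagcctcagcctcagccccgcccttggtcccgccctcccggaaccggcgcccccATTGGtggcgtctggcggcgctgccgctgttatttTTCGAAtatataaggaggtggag
Cdk1: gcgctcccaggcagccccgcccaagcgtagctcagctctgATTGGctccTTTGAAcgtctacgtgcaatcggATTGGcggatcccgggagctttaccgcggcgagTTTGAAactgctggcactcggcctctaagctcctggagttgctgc

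As a group the mitosis genes stood slightly higher after Dox withdrawal, on the direction of change assumed at the end of these Results. No deposited change is labelled for the floxed cells, so effects of Dox itself and of Cdk12 loss cannot be told apart. None of the members was called by either of the authors' statistics described below, but 1 member at 24 h and 2 at 48 h lack a posterior probability. Their median log2 change in the authors' deposited table was 0.14 at 24 h and 0.21 at 48 h, or 1.10-fold and 1.15-fold. The median over all genes in that table was 0.01 at both times. At 24 h 24 members were above 0 and 8 below (75% above, against 52.2% of all genes), and at 48 h 28 were above and 4 below (87.5%, against 51.4%). The upper quartile of all genes in that table was 0.17 at 24 h and 0.23 at 48 h, and 13 and 14 members lay above it. The 4 members below 0 at 48 h were Nek2, Cdc25c, Mad2l1 and Cdc25b. No p is given for these counts, since the list was chosen with results known and genes share their libraries.

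Calls rest on the posterior probability of differential expression, an estimate between 0 and 1 of how likely a gene's mean differs, with a threshold of 0.95. By this rule 0 of 31 members with a posterior were called at 24 h and 0 of 30 at 48 h. Incenp at 24 h, and Aurkb and Ccnb2 at 48 h, have no posterior and are left out of these counts. No gene of the table that changed by less than 1.43-fold was called at either time. Among the members only Cenpe and Cenpf, at 48 h, were past that change, so the absence of calls says little about smaller changes. Of all genes with a posterior, 1.13% were called at 24 h (0.45% as rises and 0.679% as falls) and 7.69% at 48 h (3.72% as rises and 3.97% as falls). By the second deposited statistic, an adjusted p of at most 0.05 whose test is not stated, 0 of 32 members were called at either time, against 0.167% and 3.71% of all genes. With so low a background at 24 h an absence of calls says little. The adjusted p of every member was 1 at 24 h per the authors' deposited table and lay between 0.265 (Cenpe) and 1 (Ect2) at 48 h. None of the members carried the authors' mark for a Dox effect, which 3 of the 12819 rows bore at 24 h and 149 at 48 h. With marks so few, their absence among 32 members says little, and the meaning of the mark is not defined in the table. A p or posterior that misses its threshold does not show that a gene was unchanged.

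**Figure D1:**
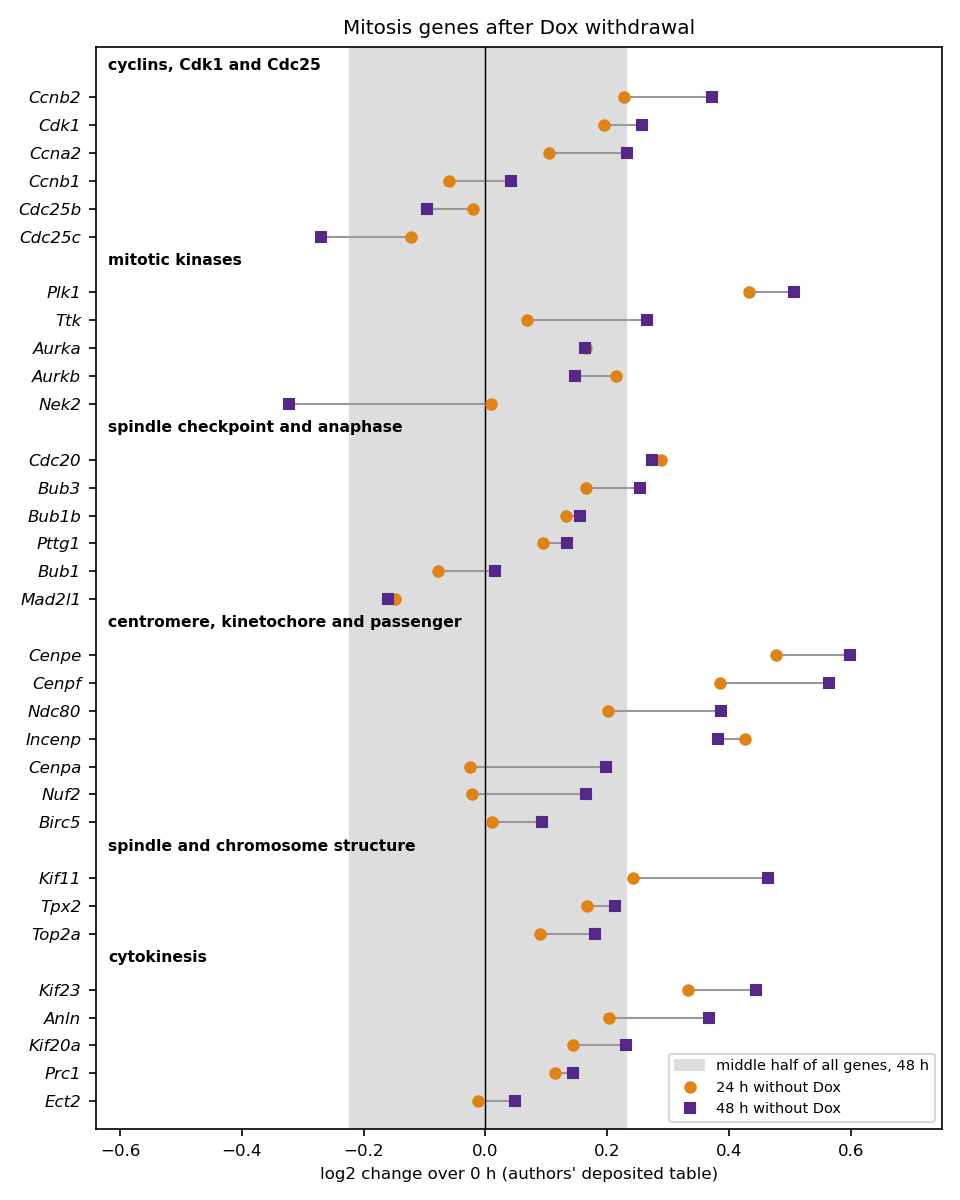
Log2 change over 0 h (horizontal axis) of each of the 32 mitosis genes at 24 h (circles) and 48 h (squares) without Dox, by role, with the interquartile range of all genes at 48 h in grey, from the authors' deposited table. Cenpe, Cenpf and Plk1 stand farthest right at 48 h, and Nek2 and Cdc25c farthest left.

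Among the cyclins and the Cdk1 module, the B-type cyclin genes had unlike values. Ccnb2 stood at 0.23 at 24 h and 0.37 at 48 h per the authors' deposited table, and Ccnb1, which encodes the main mitotic cyclin, at -0.06 and 0.04. Ccna2, which encodes the cyclin of S and G2 phase, stood at 0.11 and 0.23 per the authors' deposited table. Cdk1, the kinase gene these cyclins serve, stood at 0.19 and 0.26 per the authors' deposited table. Both Cdc25 phosphatase genes among the members lay below 0 at both times. Cdc25c stood at -0.12 at 24 h and -0.27 at 48 h, and Cdc25b at -0.02 and -0.10, per the authors' deposited table. Cdc25a, which is not a member, was at 0.15 and -0.08 there. This group had the lowest median of the 6 at both times, 0.04 and 0.14 over the 6 genes in the authors' deposited table. The 4 cyclin and kinase genes were thus above 0 at 48 h while both Cdc25 genes of the group were below it, and whether the subgroups differ was not tested.

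Of the mitotic kinases, Plk1, which acts from mitotic entry to cytokinesis, had the largest change, 0.43 at 24 h and 0.51 at 48 h (1.35-fold and 1.42-fold) in the authors' deposited table. Its posterior was 0.375 and 0.844 there, and its adjusted p at 48 h was 0.367. The Aurora kinase genes stood close to each other. Aurka, which encodes the spindle pole kinase, was at 0.17 and 0.16, and Aurkb, which encodes the kinase of the passenger complex, at 0.21 and 0.15 per the authors' deposited table. Ttk, the gene of the checkpoint kinase Mps1, stood at 0.07 and 0.27 per the authors' deposited table. Nek2, a centrosome-splitting kinase gene, had the lowest value of all members at 48 h, -0.32 (0.80-fold), after 0.01 at 24 h per the authors' deposited table. The 5 kinase genes had a median of 0.17 at 24 h and 0.16 at 48 h per the authors' deposited table, with all 5 above 0 at 24 h and 4 at 48 h.

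Genes of the spindle checkpoint and of anaphase were mostly above 0, with Mad2l1 as the exception at both times and Bub1 at 24 h. Cdc20, which encodes the activator of the APC/C, stood at 0.29 at 24 h and 0.27 at 48 h per the authors' deposited table. The checkpoint genes Bub3 and Bub1b stood at 0.17 and 0.25, and at 0.13 and 0.16, per the authors' deposited table. Bub1, a checkpoint kinase gene, was at -0.08 and 0.02 per the authors' deposited table. Pttg1, the gene of securin, which restrains separase until anaphase, was at 0.09 and 0.13 per the authors' deposited table. Mad2l1, whose product binds and inhibits Cdc20, was below 0 at both times, at -0.15 and -0.16 per the authors' deposited table. The median of these 6 genes was 0.11 at 24 h and 0.14 at 48 h per the authors' deposited table, and 5 of 6 were above 0 at 48 h.

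The centromere, kinetochore and passenger genes had the highest median of the 6 groups at both times, 0.20 at 24 h and 0.38 at 48 h per the authors' deposited table, and all 7 were above 0 at 48 h. Cenpe, a kinetochore motor gene, had the largest change of all members, 0.48 at 24 h and 0.60 at 48 h (1.39-fold and 1.51-fold) in the authors' deposited table. Cenpf, the gene of a large protein of the outer kinetochore, followed at 0.38 and 0.56 per the authors' deposited table. Among all genes Cenpe stood at percentile 96.4 at 24 h and 93.6 at 48 h, and Cenpf at 93.7 and 92.8. The paired subunits of the Ndc80 complex, which grips microtubules, stood apart at 24 h, Ndc80 at 0.20 and Nuf2 at -0.02, and at 48 h were at 0.39 and 0.17 per the authors' deposited table. Cenpa, the gene of the centromeric histone, was at -0.03 and 0.20 per the authors' deposited table. Incenp and Birc5 encode the scaffold and survivin of the passenger complex, and Incenp stood at 0.43 and 0.38 and Birc5 at 0.01 and 0.09 per the authors' deposited table. The complex's kinase gene Aurkb lay between them at both times.

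In spindle assembly and chromosome structure, Kif11, which encodes the motor that pushes spindle poles apart, stood at 0.24 at 24 h and 0.46 at 48 h per the authors' deposited table. Tpx2, a spindle assembly factor gene that activates Aurora A, was at 0.17 and 0.21, and Top2a, the gene of the topoisomerase that unlinks sister chromatids, at 0.09 and 0.18, per the authors' deposited table. Among the cytokinesis genes, Kif23 and Anln had the largest changes. Kif23, a motor gene of the central spindle, stood at 0.33 and 0.44, and Anln, the gene of the contractile ring scaffold anillin, at 0.20 and 0.37 per the authors' deposited table. The motor gene Kif20a was at 0.14 and 0.23, and Prc1, the gene of a microtubule-bundling protein of the midzone, at 0.11 and 0.14 per the authors' deposited table. Ect2, which encodes the exchange factor that activates RhoA at the cleavage furrow, was at -0.01 and 0.05 per the authors' deposited table. The spindle and chromosome genes had medians of 0.17 and 0.21 over 3 genes, and the cytokinesis genes 0.14 and 0.23 over 5, per the authors' deposited table. All 8 were above 0 at 48 h.

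Most members were higher at 48 h than at 24 h. The ratio of 48 h over 24 h, taken as the difference of the log2 changes on the assumption that both use the same 0 h libraries and scaling, was above 1 for 24 of 32 members (75%), against 48.4% of the 12766 genes with both values. Its median on the log2 scale was 0.08 over the members and -0.01 over all genes of the authors' deposited table. Among the members the largest steps up were those of Cenpa at 0.22, Kif11 at 0.22 and Ttk at 0.20, and the largest steps down those of Nek2 at -0.33 and Cdc25c at -0.15. All 5 cytokinesis and all 3 spindle and chromosome genes were higher at 48 h, as were 6 of 7 centromere and kinetochore genes, but 2 of 5 kinase genes. The authors' table gives no test of 48 h against 24 h.

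The order of the members by posterior was not their order by change, though at 24 h those with the higher posteriors were mostly among the larger changes. At 24 h Aurkb had the highest posterior, 0.937, at a log2 change of 0.21, while Cenpe at 0.48 had 0.0225 and Cenpf at 0.38 had 0.00258 per the authors' deposited table. At 48 h Incenp had the highest, 0.938 at a change of 0.38, and the posteriors of Cenpe and Cenpf were 0.223 and 0.0107 per the authors' deposited table. The smallest change of any called gene was 1.43-fold at both times. At 48 h Cenpe and Cenpf were the 2 members past it, with Plk1 just under it, and at 24 h no member was past it. Of the 1096 genes of the table higher by at least that much at 48 h with a posterior, 461 (42.1%) were called. That share pools rises of every size from 1.43-fold up, and none was computed for changes near those of Cenpe and Cenpf. Posteriors were under 0.1 for 29 of 31 members at 24 h and for 25 of 30 at 48 h.

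**Figure D2:**
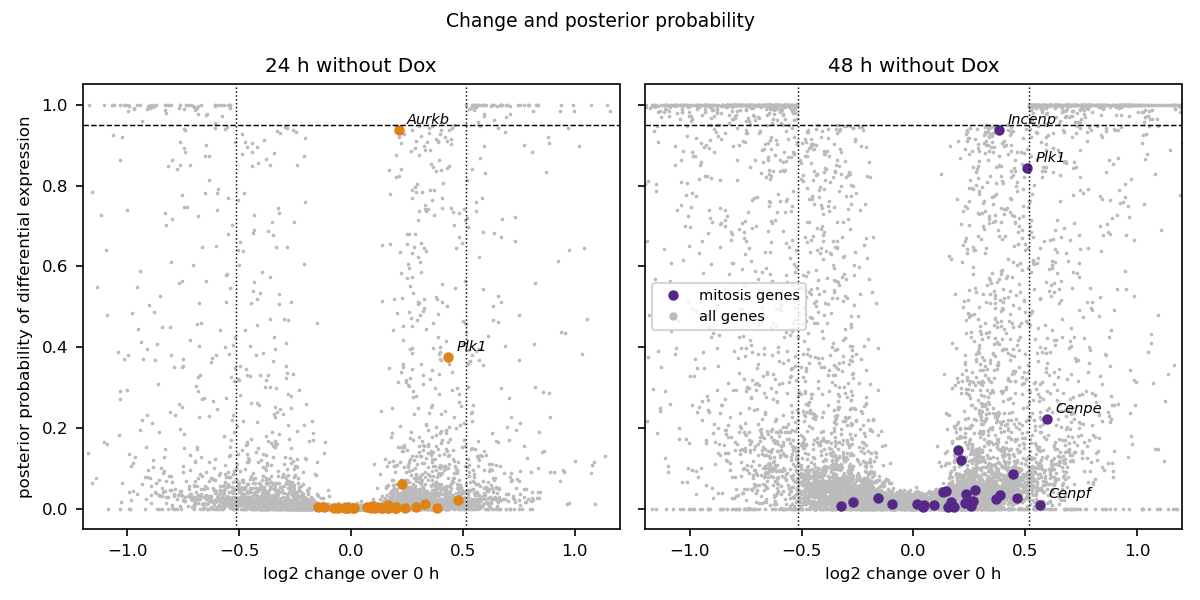
Posterior probability of differential expression (vertical axis) against log2 change over 0 h (horizontal axis) at 24 h and 48 h, for mitosis genes (coloured) and all genes (grey) with a change within the axis limits, from the authors' deposited table. The dashed line marks a posterior of 0.95 and the dotted lines a change of 1.43-fold, and no mitosis gene lies above the dashed line.

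Other genes of mitosis, 144 of which were measured in 7 lists beside the members, had a median of 0.07 at 24 h and 0.12 at 48 h per the authors' deposited table. Of the 142 with a posterior at 48 h, 3 were called as rises and 3 as falls, that is no larger a share than the 3.72% and 3.97% of all genes. Other spindle motor and midbody genes had the highest median of these 7 lists at both times. Their median was 0.15 at 24 h and 0.25 at 48 h over 22 genes in the authors' deposited table, with 20 of 22 above 0 at 48 h. Kifc1 and Kif18b, which encode mitotic kinesins, rose by 0.79 each at 48 h per the authors' deposited table (posterior of 1 for both), and both passed the second statistic at an adjusted p of 0.0421. The lowest of that list, the kinesin gene Kif14, stood at -0.16 per the authors' deposited table. Condensin, cohesin and separase genes had medians of 0.12 and 0.18 over 24 genes with no call in the authors' deposited table. They ranged at 48 h between -0.41 for the condensin gene Ncapd3 and 0.87 for the cohesin acetyltransferase gene Esco2 per the authors' deposited table.

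The remaining kinetochore and centromere genes had lower medians than the 7 members of that role. Their median was -0.02 at 24 h and -0.05 at 48 h over 33 genes in the authors' deposited table, with 15 above 0 and 18 below at 48 h. Cenpb, which encodes a binding protein of centromeric repeats, fell by 0.90 and Cenpm, a gene of the inner kinetochore, fell by 0.81 at 48 h per the authors' deposited table. Both passed the second statistic there, at adjusted p values of 0.0106 and 0.0308, and Cenpm carries the Dox mark. Cenpo was lowest at -0.94, with a posterior of 0.268, and the outer kinetochore scaffold gene Casc5 highest at 0.68, with a posterior of 0.0535, per the authors' deposited table. The difference between the members and these genes was not tested.

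Regulators of mitotic entry, of which 11 had a row in the authors' deposited table, had a median of 0.15 at 24 h and at 48 h. Gtse1, a gene expressed in S and G2 phase, rose by 0.61 at 48 h with a posterior of 1, and Mastl, the Greatwall kinase gene, stood at 0.61 with a posterior of 0.118, per the authors' deposited table. Gtse1 did not pass the second statistic, at an adjusted p of 0.178 per the authors' deposited table. The lowest was Cdkn3, a phosphatase gene acting on cyclin-dependent kinases, at -0.74 per the authors' deposited table. APC/C subunit and partner genes had medians of 0.04 and -0.04 over 17 genes, and 1 of them, Anapc11, the gene of the catalytic RING subunit, fell by 0.58 at 48 h per the authors' deposited table. It did not pass the second statistic, at an adjusted p of 0.188 per the authors' deposited table. The highest of that list was the APC/C inhibitor gene Fbxo5 at 0.27 per the authors' deposited table. Centrosome genes had medians of 0.10 and 0.12 over 22 genes and no call, between -0.53 for Haus1 and 0.69 for the centriole gene Sass6 at 48 h per the authors' deposited table. Genes of the MuvB complex, B-Myb, FoxM1, NF-Y, and the pocket, E2F and DP proteins that join MuvB, had medians of -0.01 and -0.00 over 15 genes of the authors' deposited table, with no call. Of these Rbl2, the gene of a pocket protein, was highest at 0.55 and the DP gene Tfdp1 lowest at -0.34 per the authors' deposited table.

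The lists of the preceding phases had medians below 0. DNA replication genes had a median of -0.08 at 24 h and -0.22 at 48 h over 45 genes in the authors' deposited table, with 9 above 0 and 36 below at 48 h. Orc3, a gene of the origin recognition complex, fell by 1.02 and Rfc5, a clamp loader gene, fell by 0.71 at 48 h per the authors' deposited table. Neither passed the second statistic, at adjusted p values of 0.160 and 0.104, and Orc4 was highest at 0.36, per the authors' deposited table. Genes of G1 phase and its exit had medians of -0.11 and -0.17 over 17 genes in the authors' deposited table, with 5 above 0 and 12 below at 48 h. Of these Cdkn1a, which encodes the inhibitor p21, rose by 0.76 with the Dox mark, and E2f2 fell by 0.63, at 48 h per the authors' deposited table. Neither passed the second statistic, at adjusted p values of 0.0608 and 0.123 in that table. The tumour suppressor gene Rb1 was highest at 1.15 with a posterior of 0.888 there. Members and replication genes thus had medians of opposite sign at both times, and that difference was not tested because genes of 1 table are not replicates.

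**Figure D3:**
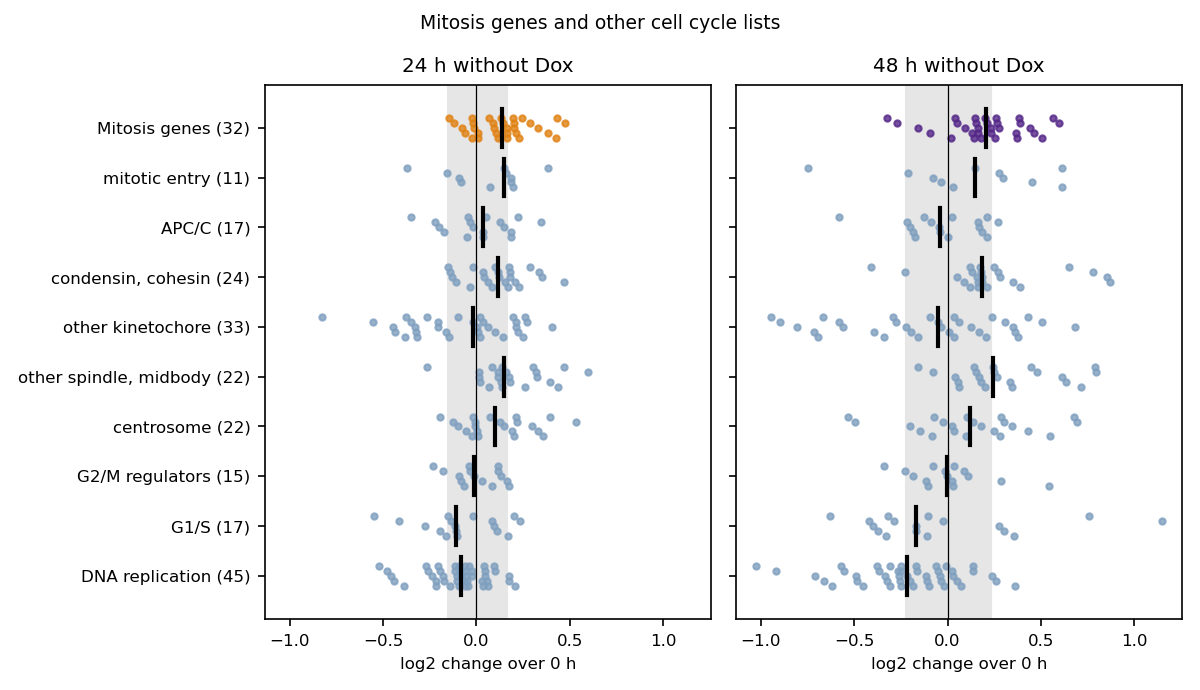
Log2 change over 0 h (horizontal axis) at 24 h and 48 h for the mitosis genes (top) and for genes of 9 other cell cycle lists, 1 point per gene, with the list's median as a black bar and the interquartile range of all genes in grey. Numbers in brackets are genes with a row in the table. The mitosis genes' medians are 0.14 and 0.21 and those of DNA replication genes -0.08 and -0.22.

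Gene length varied widely among the members, between 4.44 kb for Cdc20 and 60.98 kb for Cenpe, counted as the annotated span on GRCm38.p6. Their median length was 18.2 kb, against 22.7 kb over the 12655 genes of the table with a length and a change at 48 h. The 16 longer members had a median change at 48 h of 0.24 and the 16 shorter ones 0.18 per the authors' deposited table. Split at the same length, all genes had medians of 0.04 (7215 longer) and -0.03 (5440 shorter) in that table. Across the 32 members Spearman's rho between length and change at 48 h was 0.35, and without the 2 longest, Cenpe and Anln, it was 0.25. Across all genes it was 0.09, and across the 45 replication genes -0.10. At 24 h the coefficient was 0.23 across the 32 members and 0.13 without the 2 longest. These coefficients describe genes that share the same libraries, and none of them is taken as a finding. Of the long members Cenpe, Cenpf, Kif11 and Anln were high, but Ect2, at 57.0 kb, and Bub1, at 31.7 kb, were near 0. Without the 2 longest, the longer members had a median of 0.20 and the shorter ones 0.18.

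**Figure D4:**
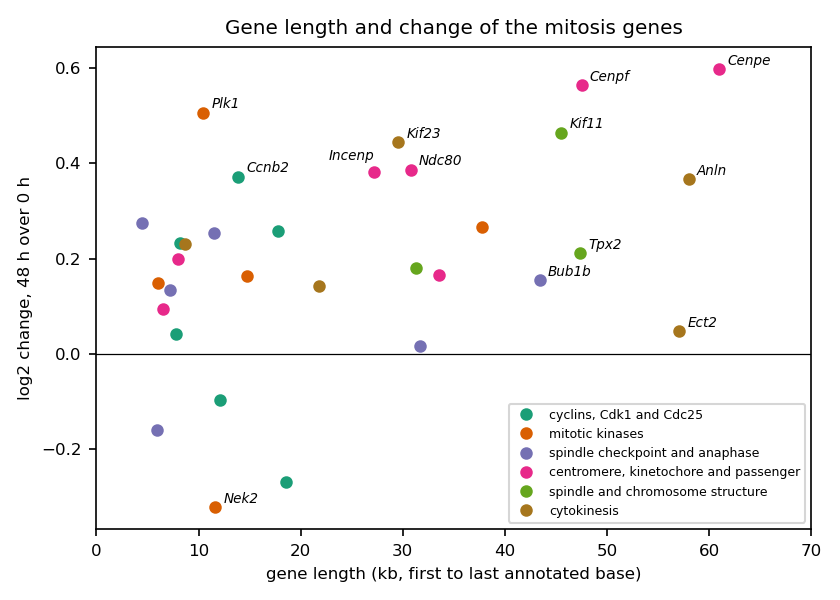
Log2 change at 48 h over 0 h (vertical axis) against annotated gene length in kb (horizontal axis) for the 32 mitosis genes, coloured by role, from the authors' deposited table. Among the long genes Cenpe and Cenpf are high while Ect2 and Bub1 are near 0, and the longest of the 4 genes below 0 is Cdc25c at 18.6 kb.

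Changes at 48 h were also set against the promoter elements, with no test. The 19 members with TTTGAA or TTCGAA had a median of 0.26 and the 7 without it 0.09 per the authors' deposited table. For TTCGAA, counted whether or not TTTGAA was also present, the order was the other way. The 4 members that hold it had a median of 0.09 and the other 22 one of 0.26 per the authors' deposited table. Over all genes of the table with a promoter entry, the 1579 with TTTGAA or TTCGAA had a median of 0.00 and the others 0.01. The 680 genes of the table with both kinds of element had a median of 0.04, and 52.6% of them were above 0, against 51.4% of the others. Of the elements searched, Cenpe, the highest member with a promoter entry, held CCAAT alone, as did Nek2, the lowest.

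All 10 markers of embryonic stem cells looked for, Pou5f1, Sox2 and Nanog among them, have a row, with no call and medians of 0.12 at 24 h and 0.05 at 48 h per the authors' deposited table, which gives changes and no levels. Of these 10, 7 were above 0 and 3 below at 24 h, and 5 above and 5 below at 48 h. At 48 h they ranged between -0.46 for Zfp42 and 0.39 for Sox2 in that table. Endoderm markers with a row were all above 0 at both times. Of 6 such genes 5 had a row, and their medians were 0.52 and 0.75 per the authors' deposited table. Sox7 was called as a rise at 24 h, by 0.55, and Gata4 and Gata6 at 48 h, by 0.85 and 0.79, per the authors' deposited table. Gata4 passed the second statistic at 48 h (adjusted p of 0.0278), while Sox7 at 24 h (1) and Gata6 at 48 h (0.102) did not, and the posterior of Sox7 at 48 h was 3.27e-22, per the authors' deposited table. Of 8 fibroblast markers 3 had a row (medians 0.31 and 0.68), and why the others lack one is not stated. Among these 3, Col1a1 was called as a rise at 48 h, by 0.89, with the Dox mark and an adjusted p of 0.0517 in the authors' deposited table. Of 4 mesoderm markers 2 had a row (medians 0.40 and 0.70), and of 4 neural markers 3 did (medians -0.17 and -0.54), with no call in the authors' deposited table. The part of other cell types in the mitosis genes' changes was not tested.

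Cdk12 itself stood at -0.61 at 24 h and 48 h and was not called, its posteriors in the authors' deposited table being 0.0704 and 0.266. For Ccnk, which encodes its cyclin, the authors' deposited table has -0.02 at 24 h and again at 48 h. No header states which way the changes run. Positive values here mean higher after Dox withdrawal, a reading that rests on the order of times in the column names and on Cdk12 lying below 0. Under the opposite reading every sign above would turn round.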

How the data were processed

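PolyA-selected RNA of 18 libraries was sequenced, 12 of knockout clones and 6 of parental floxed cells. The 32 ChIP and control libraries were not analysed here. Per the submitters' processing notes STAR, RSEM and DESeq 1.22.1 were among the tools, and mm9 and mm10 were named, with no role or order. What each did for this table is not stated.

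The authors deposited, per gene and time, a posterior probability (a score between 0 and 1), a log2 fold change of 0 h and the later time, an adjusted p-value and a yes or no mark. The log2 changes were multiplied by -1. No column holds a library, so nothing was refitted, and replicates, batches and clones could not be examined. Calls used a posterior of at least 0.95 or an adjusted p of at most 0.05, taken over the whole table. Counts and medians were computed with Python 3.11.15 and pandas 2.3.3, and Spearman coefficients with SciPy 1.17.1, after the counting functions were tested on simulated data. Members and lists were chosen with earlier results of these data known. All 32 members are named. In each other list, called genes and the highest and lowest at 48 h are named. Names were matched to RefSeq's GRCm38.p6 annotation for 12707 of the 12819 rows, by symbol or by a synonym that fits 1 gene. Alternatives were other posterior thresholds, the second statistic, a minimum fold, centring, the mean, and other role groups. Counting missing posteriors as calls was added after the data were seen.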

Additional observations from a re-analysis of the deposited data

How the results depend on the processing

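The count of called members was also 0 at both times with an adjusted p of at most 0.05. A posterior of at least 0.99 or an added minimum of 1.5-fold can only give 0 where the looser rule gives 0, and shows nothing of stability. With a posterior of at least 0.5 it was 1 at 24 h (Aurkb) and 2 at 48 h (Plk1 and Incenp). Counting members with no posterior as called, an alternative chosen after seeing the data, gave 1 at 24 h (Incenp) and 2 at 48 h (Aurkb and Ccnb2). The members' medians stayed within 0.05 on the log2 scale of 0.14 at 24 h and 0.21 at 48 h under each alternative tried. These were members with a posterior only, the change minus that of the median gene, the mean, and leaving out each role group. The number of members above 0 was 24 and 28, and 19 and 24 with the limit set at 0.1. With Bub1 and Bub1b among the kinases and Aurkb among the centromere genes, 2 role medians moved by more than 0.05, to 0.10 for kinases at 24 h and 0.29 for centromere, kinetochore and passenger genes at 48 h. No paired analysis was possible because the table has no value per library, and leaving out a replicate was not possible either. Depth and expression level are unknown, so how far they limit a call could not be judged.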

Other observations

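Rows of the authors' deposited table with no posterior probability were not spread evenly over changes. Of the 156 such rows at 24 h 154, and of the 358 at 48 h 356, had a change smaller than that of any called gene. These changes lay between 1.13-fold and 1.43-fold at 24 h and between 1.11-fold and 1.43-fold at 48 h. Of the genes under 1.43-fold that do carry a posterior, 37 of 11712 at 24 h and 77 of 10009 at 48 h had at least 0.9. The mitosis genes fall in this band more than once. Incenp had no posterior at 24 h and 0.938 at 48 h per the authors' deposited table. Aurkb had 0.937 at 24 h and none at 48 h, where its change of 0.15 was the smallest of all rows without one in the authors' deposited table. Ccnb2 had 0.0607 at 24 h and none at 48 h, with a change of 0.37, per the authors' deposited table. How the table came to lack these values is not stated, so a missing posterior cannot be read as a low one.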
